A study of Macaca mulatta with 4 samples.

Results

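Bergmann glia of the fetal rhesus macaque cerebellum were examined as 1709 nuclei among 32587 barcodes with 500 or more genes detected, which is 5.24% of them. A barcode was taken as a Bergmann nucleus where it held 2 or more unique molecular identifiers (UMIs, 1 per captured RNA molecule) of SLC1A3. It also had to show 2 or more of TNC, GRIA1, EMID1, FGFR2 and LGR6, and more of these 5 than of the astrocyte genes KCNN3, ANOS1, GFAP, ANGPT1 and BBOX1. It held no UMI of the cell cycle genes MKI67, TOP2A and ASPM. The nuclei were thus selected on measured values of 14 genes, and the levels of those genes are given as a description with no test. The Control female gave 451 of 9256 barcodes, the Control male 523 of 8621, the LPS female 368 of 6905 and the LPS male 367 of 7805.

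Single-nuclei RNA was sequenced (snRNA-seq, 10x Genomics 3′ chemistry) from the cerebellum of 4 rhesus macaque (Macaca mulatta) fetuses, each giving 1 library. Both controls, 1 female and 1 male, had no intervention and were 130 days of gestation. Both LPS-exposed fetuses were delivered 5 days after an injection of 1 mg of lipopolysaccharide (LPS, a bacterial wall component that drives inflammation) into the amniotic cavity, a model of chorioamnionitis. The female was 131 and the male 133 days of gestation. Age and LPS exposure cannot be told apart in these 4 libraries, and the flash-frozen tissue joined cerebellar hemispheres and part of the vermis, so the nuclei carry no position in the cortex.

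Bergmann glia are the radial astroglia of the cerebellar cortex. Their somata lie beside the Purkinje cells and their fibres cross the molecular layer to the pial surface. Granule cells use these fibres as tracks when they migrate inwards before and after birth. Bergmann glia also enclose Purkinje cell synapses, clear glutamate through the transporter that SLC1A3 encodes, and carry AMPA-type glutamate receptors. Notch and FGF signalling are known to maintain them, and Sonic hedgehog from Purkinje cells reaches them.

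The libraries held between 34282015 and 61665690 UMIs. Bergmann nuclei held a median of 5550 UMIs and 2443 genes in the Control female, 2456 UMIs and 1481 genes in the Control male, 4766 UMIs and 2241 genes in the LPS female and 2618 UMIs and 1570 genes in the LPS male. Nuclei of the male libraries held fewer UMIs in both groups, and the summed profiles of the nuclei also paired by sex. Pearson's r of log2 levels over 10866 genes, which are not independent replicates, was 0.969 between the 2 female libraries and 0.934 between the 2 male ones, against 0.836 to 0.878 between sexes. Of 10855 genes outside the rule, 62.1% had both male libraries above or both below the female ones, and 15.9% had both LPS libraries above or both below the controls. Between 16 and 22 barcode sequences recurred in each pair of libraries, where 7.93 to 11.7 would recur if barcodes were drawn at random. The share of a nucleus sum that matched free RNA (RNA outside nuclei, profiled in barcodes of at most 100 UMIs) was estimated at 15.8, 29.5, 19.4 and 36.8% in the Control female, Control male, LPS female and LPS male. The mean mitochondrial share of Bergmann nuclei was 0.215, 0.019, 0.208 and 0.026% in the same order. In these 4 libraries sex cannot be told apart from depth, free RNA or mitochondrial share. A split by sex below is also a split by these measures. Doublets were not removed, and 13.6 to 16.0% of Bergmann nuclei per library were among the highest Scrublet doublet scores, against 5.52 to 7.40% of all barcodes.

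The genes of the rule stood apart from the other barcodes in every library. All levels below are CPM, the UMIs of a gene per 1000000 UMIs of the summed nuclei, with no correction for gene length. Pairs of values give the female library first. SLC1A3 was at 3814 and 2796 in controls and 3683 and 2563 after LPS, and at 182 to 338 in all other barcodes. TNC, the extracellular matrix glycoprotein tenascin-C, was at 4044 and 3665 in controls and 3869 and 2223 after LPS, with the LPS male below the other 3 libraries. GRIA1, an AMPA receptor subunit, was at 1793 and 1632 in controls and 1960.2 and 1619.9 after LPS. FGFR2, a fibroblast growth factor receptor, was at 1188 and 1227 in controls and 1032 and 1009.9 after LPS. EMID1, which encodes an EMI domain protein, was at 363 and 571 in controls and 332 and 511 after LPS, higher in the males of both groups, and LGR6, a receptor for R-spondins, was at 259 and 257 in controls and 210.2 and 248 after LPS. Over the other barcodes these 6 genes were between 11.2-fold (SLC1A3) and 34.0-fold (LGR6) higher within a library, which the selection set.

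The 5 astrocyte genes of the rule were detected in Bergmann nuclei at very different levels. GFAP, the intermediate filament of mature astrocytes, was at 91.5 and 153 in controls and 85.02 and 152 after LPS in Bergmann nuclei and at 16.3 to 58.2 in the other barcodes, and it followed sex and not exposure. ANGPT1, a ligand of the endothelial receptor TIE2, was at 584 and 344 in controls and 606 and 573 after LPS, or 3.02- to 5.98-fold above the other barcodes. ANOS1 was at 228 and 159 in controls and 273 and 84.96 after LPS. KCNN3, a calcium-activated potassium channel, was at 49.7 and 109 in controls and 55.4 and 71.3 after LPS. BBOX1, an enzyme of carnitine synthesis, was at 17.95 to 33.8 over the 4 libraries. A comparison population was built with the same rule and the 2 lists of 5 genes exchanged. These 613 nuclei, 232 and 127 in the controls and 167 and 87 in the LPS-exposed fetuses, are called other astroglia below. A further 277 barcodes had as many genes of one list as of the other, and 369 barcodes that met the glial criteria were set aside for a cell cycle UMI.

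**Figure D1:**
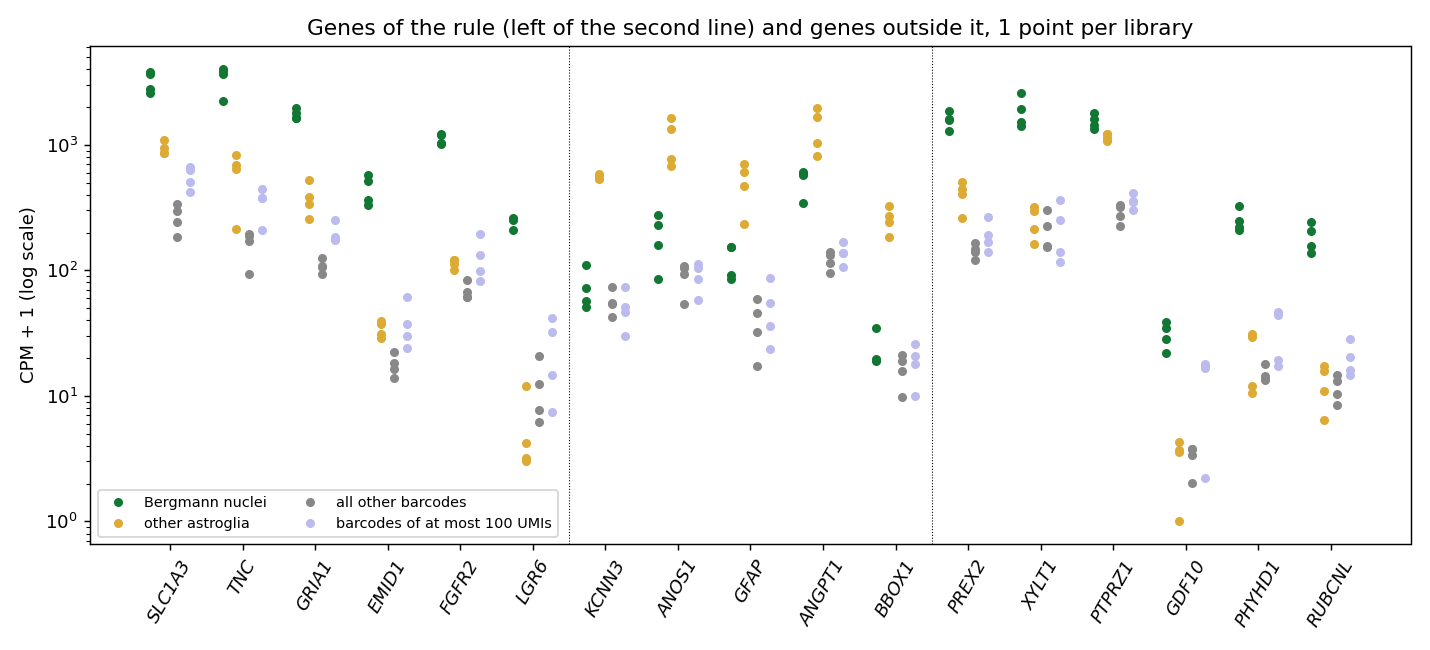
Levels (CPM + 1, log axis) of 17 genes in Bergmann nuclei, other astroglia, all other barcodes and barcodes of at most 100 UMIs, with 1 point per library. Genes left of the second dotted line chose the nuclei; right of it, PREX2, XYLT1, GDF10, PHYHD1 and RUBCNL were highest in Bergmann nuclei in every library, while PTPRZ1 was nearly as high in other astroglia.

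The label was then read against genes outside the rule. Of 18 listed Bergmann and radial glia genes outside it, 16 were matched, and 12 reached a mean of 10 CPM in Bergmann nuclei or the other barcodes. Of these 12, GDF10 and PTPRZ1 were 4-fold above the other barcodes in every library, where 1.6% of all genes were, and the other 10 were not. PTPRZ1, a receptor phosphatase of radial glia, was at 1326 and 1774 in controls and 1428 and 1599.8 after LPS and 4.83- to 6.36-fold above the other barcodes. GDF10, a TGF-beta family ligand known as a marker of Bergmann glia, was low but concentrated there, at 27.2 and 20.8 in controls and 33.8 and 37.7 after LPS against 1.02 to 2.78 in the other barcodes. HOPX, another Bergmann marker, was at 8.02 to 21.1, and in free RNA at 6.002 to 40.9. AQP4, the water channel of astrocyte end-feet, was at 122 and 66.99 in controls and 123 and 100.2 after LPS and lower than in other astroglia (132 to 546). With each barcode thinned to 1000 UMIs, PTPRZ1 was detected in 65.4, 77.1, 69.2 and 75.9% of Bergmann nuclei (Control female, Control male, LPS female, LPS male), and PREX2 in 70.3, 68.2, 71.7 and 78.4%. Without thinning these shares were 88.9, 89.5, 88.9 and 94.0% for PTPRZ1. A wide comparison set held the barcodes with RBFOX3 detected that did not pass as astroglia. It had 7366, 6857, 5434 and 5504 barcodes in the same order, and SLC1A3 was detected without thinning in 45.3, 18.6, 37.3 and 24.8% of these. In this set, with unthinned medians of 4456, 1829, 4033 and 2638 UMIs, thinned detection of PTPRZ1 was 11.8, 14.03, 8.79 and 16.6%. PTPRZ1 was also high in other astroglia, at 1067 and 1228 in controls and 1139.7 and 1217 after LPS, whereas GDF10 was at 0 to 3.32 there. PREX2 is one of the leading genes described below and was chosen for its level, so it is no check of the label. HOPX stayed within the range of free RNA.

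Levels of these genes changed with the number of further markers a nucleus held. Of the 1709 nuclei, 626 held all 5, 549 held 4, 296 held 3 and 238 (13.9%) held only 2. In nuclei with 5 markers PTPRZ1 was at 1513 and 2128 in the controls and 1617 and 1862 in the LPS-exposed fetuses. In those with 2 it was at 221 and 384 in the controls and 330.2 and 566 in the LPS-exposed fetuses, against 269, 318, 224 and 330.4 in the other barcodes in the same order. PREX2, which was chosen for its level, went from 1740.3 to 2451 with 5 markers to 293 to 368 with 2. The summed level of 13 granule lineage genes was 7619, 4007, 2898 and 10497 in the nuclei with 2 markers (Control female, Control male, LPS female, LPS male) and 2232, 1709, 1547 and 3423 in those with 5. GDF10 was at 3.40, 0, 3.89 and 10.96 with 2 markers and at 34.03, 13.3, 44.7 and 49.3 with 5, in the same order. In PTPRZ1 and GDF10 the nuclei with 2 markers lay closer to the other barcodes than to the nuclei with 5 in every library. In the granule list this held for the Control female and the LPS male, and the other 2 libraries lay closer to the nuclei with 5. The share, the counts of called genes, the 4-fold count and the genes named for LPS were recomputed with 3 or more markers required, and the levels and lists were not. At the edges of the rule, 154 Bergmann nuclei had SLC1A3 at exactly 2 UMIs, with PTPRZ1 at 330.4, 1354, 1146 and 1075. The 211 barcodes that met all else but had SLC1A3 at 1 UMI had PTPRZ1 at 328, 1264, 241 and 909.8, in the same order.

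**Figure D2:**
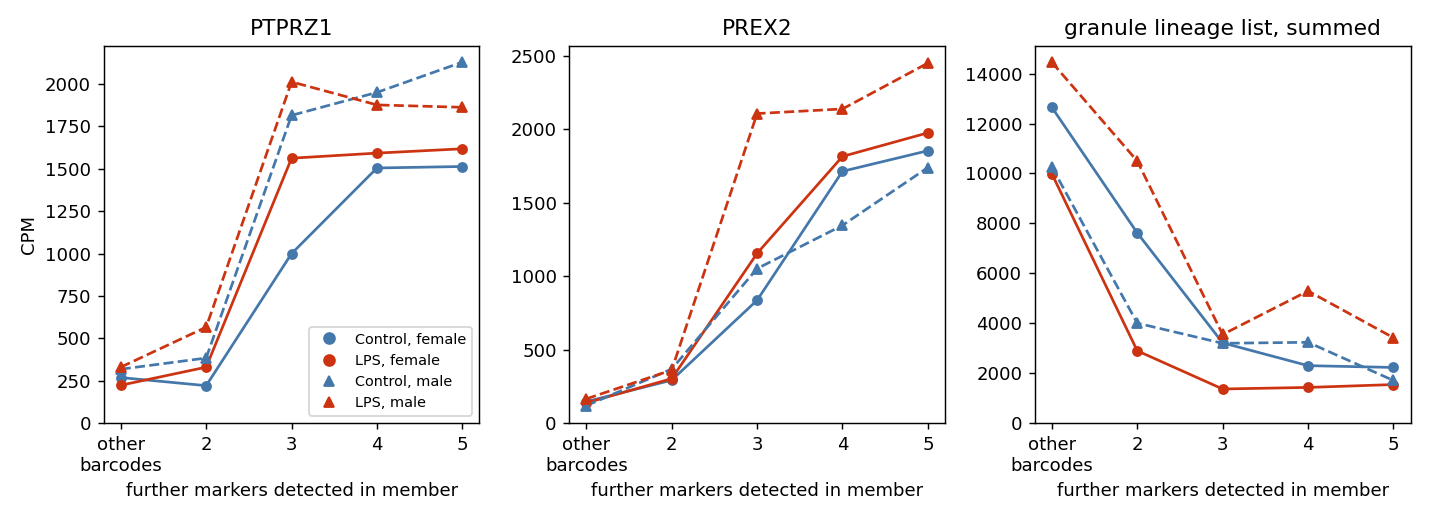
Levels (CPM) of PTPRZ1, PREX2 and the summed granule lineage list in all other barcodes and in Bergmann nuclei by the number of the 5 further markers detected, with 1 line per library (circles female, triangles male). PTPRZ1 and PREX2 were lower at 2 markers than from 3 markers on in every library, and the granule list was lower from 3 markers on.

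Markers of other cell classes were present at levels that differed between libraries. The granule list summed to 2913 and 2868 in controls and 1672 and 5623 after LPS in Bergmann nuclei, against 12648, 10259, 9986 and 14453 in the other barcodes and 8579.8, 7820.4, 6310.2 and 12401 in free RNA, with the LPS male highest in each. The choroid and ependymal list summed to 194 and 281 in controls and 588 and 219 after LPS in Bergmann nuclei and to 225, 137, 2956 and 107 in free RNA, with the LPS female highest in both. The fibroblast list, most of it PDGFRA, summed to 473 and 558 in controls and 673 and 245 after LPS, the oligodendrocyte lineage list to 414 and 387 in controls and 544 and 586 after LPS and the Purkinje list to 718 and 596 in controls and 797 and 680.5 after LPS. Microglial genes summed to 30.9 and 28.8 in controls and 35.4 and 14.4 after LPS, interneuron genes to 62.4 and 48.9 in controls and 63.4 and 96.98 after LPS, unipolar brush genes to 17.1 and 19.4 in controls and 19.01 and 14.4 after LPS and endothelial and mural genes to 150.3 and 263 in controls and 138 and 168 after LPS. The last list was above the other barcodes (103, 131, 131 and 61.4), through NOTCH3 and PDGFRB, which were 4-fold higher there. CLDN5, the defining junction gene of brain endothelium, had no UMI in Bergmann nuclei of any library. FLT1, MECOM and CDH5 of the same list were detected in these nuclei.

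Against all other barcodes, 158 of 9893 genes outside the rule (1.6%) were at least 4-fold higher in Bergmann nuclei within each of the 4 libraries, and 5 (0.0505%) were 4-fold lower. Since the selection used this contrast, the counts describe the nuclei and were not tested. The 15 leading genes included carriers and enzymes. SLC25A18, a mitochondrial glutamate carrier, was at 85.7 and 174 in controls and 71.3 and 194 after LPS and 12.1- to 16.4-fold above the other barcodes. ACSBG1, a fatty acyl-CoA synthetase of the brain, was at 126 and 95.1 in controls and 110.4 and 200.4 after LPS. CYP26B1, which degrades retinoic acid, was at 259.6 and 451 in controls and 404 and 619.6 after LPS, higher in the LPS library of each sex. SLCO1C1, a thyroid hormone transporter, was at 142 and 163 in controls and 119 and 74.5 after LPS. SLC12A4, a potassium-chloride cotransporter, was 8.24- to 11.4-fold higher and PHYHD1, a dioxygenase, 14.6- to 18.6-fold. RUBCNL, which takes part in autophagosome maturation, was 13.3- to 18.5-fold higher, at 204 and 239.8 in controls and 155 and 135 after LPS.

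The remaining leading genes differ in what they are known to do. PREX2, an exchange factor for Rac, was at 1562 and 1279 in controls and 1609.5 and 1847 after LPS and 10.6- to 11.6-fold higher. ARHGAP31, a GTPase-activating protein for Rac and Cdc42, was at 526 and 422 in controls and 509.6 and 395 after LPS. FAM107A, an actin-associated protein, was at 87.1 and 57.6 in controls and 52.3 and 201 after LPS, with the LPS male the highest and the LPS female the lowest library. MFGE8, a secreted bridge to integrins in phagocytosis, was at 398 and 421 in controls and 337 and 402 after LPS. PCSK6, a proprotein convertase, was at 340.5 and 386 in controls and 305 and 196 after LPS, and ADAMTS18, a matrix protease, at 382 and 307 in controls and 183 and 228 after LPS. NWD2 was at 426 to 788 over the 4 libraries. ID4, an inhibitor of bHLH transcription factors, was at 232 and 109 in controls and 291 and 176 after LPS, higher in the females of both groups. All 15 of the leading genes were at least 7.67-fold above the other barcodes in each library.

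Other astroglia shared many of these genes. Only 24 of 9712 genes (0.247%) were 4-fold higher in Bergmann nuclei than in other astroglia within each library, and 20 (0.206%) were 4-fold lower. Of the 15 leading genes, RUBCNL (13.1- to 21.1-fold), PHYHD1 (7.16- to 20.9-fold), NWD2 (6.4- to 10.9-fold), PCSK6 (4.09- to 6.93-fold) and FAM107A were among the 24. FAM107A had 2.55 and 0 in controls and 1.11 and 13.7 after LPS in other astroglia. ACSBG1 and ID4 were at 63.1 to 205 and 97.7 to 264 in other astroglia, where Bergmann nuclei stood at 0.925- to 1.5-fold and 1.1- to 1.22-fold of that level. Named after their values were seen, XYLT1, the enzyme that starts glycosaminoglycan chains, was 6.53- to 8.61-fold higher, at 1399 and 1934 in controls and 1512 and 2599 after LPS, and HRH1, the histamine H1 receptor, was at 68.6 to 102 against 2.73 to 12.2. FRRS1L, an AMPA receptor assembly factor, was at 359.7 to 612 against 20.4 to 98.5, and LRRC8A, the core subunit of the volume-regulated anion channel, at 131 to 271 against 17.2 to 46.5. Among the genes lower in Bergmann nuclei, also named after their values were seen, were AGT, angiotensinogen, at 0.67 to 8.71 against 22.4 to 137, LUZP2 at 90.8 to 152 against 908 to 4149, and ITGB4, an integrin of basement membranes, at 5.28 to 12.7 against 66.3 to 169.6.

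Uptake, receptor and ion transport genes were then counted as lists, in a comparison where 1.6% of all genes were 4-fold above the other barcodes. Of 17 glutamate genes outside the rule only CACNG8, a subunit that assists AMPA receptors, was 4-fold higher than in the other barcodes, at 101 and 178 in controls and 158 and 126 after LPS. GRIA4, the AMPA subunit that pairs with GRIA1 in Bergmann glia, was at 10414 and 3966 in controls and 9956 and 4901 after LPS, which was 2.63- to 3.87-fold above the other barcodes and split by sex. GRIA2, the subunit that makes AMPA receptors impermeable to calcium, was at 144 and 209.7 in controls and 112 and 327 after LPS against 606 to 735 in the other barcodes, lower in every library. SLC1A2, the second glial glutamate transporter, was at 170.2 and 87.8 in controls and 95.6 and 260.5 after LPS and GLUL, glutamine synthetase, at 6.53 and 14.1 in controls and 2.11 and 31.3 after LPS. Among 11 GABA and glycine genes SLC6A11, the GABA transporter GAT3, (238 and 313 in controls and 291 and 211 after LPS) and GABRG3 (126 and 121 in controls and 113 and 129.8 after LPS) passed 4-fold. GABBR1, a GABA-B receptor subunit, was at 888 and 1005 in controls and 479 and 1666 after LPS, lowest in the LPS female and highest in the LPS male. Of 13 genes of potassium, water and gap junctions 5 passed, among them KCNJ10, KCNJ16, SLC4A4 and MLC1. SLC4A4, a sodium bicarbonate cotransporter, was at 4259 and 3185 in controls and 4308 and 4699 after LPS. KCNJ10, the inward rectifier of astroglia, was at 54.1 and 25.5 in controls and 60.2 and 42.5 after LPS. Of 16 general astroglial genes 3 passed, among them MLC1 and SLC7A10. Against other astroglia 0 genes of these last 2 lists were 4-fold higher, where 0.247% of all genes were. There 1 general astroglial gene was 4-fold lower, where 0.206% of all genes were.

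Of the signalling lists, Notch genes held the largest number past 4-fold. Of 18 tested, NOTCH1, NOTCH3, HES1, HES4, HES5, HEY2 and LFNG were 4-fold above the other barcodes in every library, and 0 were 4-fold lower. NOTCH1 was at 70.1 and 145 in controls and 67.6 and 133 after LPS and its target HES1 at 100.2 and 103 in controls and 124 and 169 after LPS. None of the 18 was 4-fold different from other astroglia, where only 0.247% of all genes were higher and 0.206% lower. None of 14 Sonic hedgehog genes and none of 13 FGF genes passed, in a comparison where 1.6% of all genes did. PTCH1, receptor and target of Sonic hedgehog, was nonetheless at 328 and 589 in controls and 366 and 503 after LPS and 2.36- to 3.01-fold above the other barcodes. GLI1, a direct target, was at 10.5 and 20.1 in controls and 6.34 and 24.8 after LPS against 1.004 to 1.78. SPRY1 and ETV5, which respond to FGF signalling, were 3.84- to 6.99-fold and 3.04- to 3.51-fold higher. Of 29 matrix and adhesion genes 5 passed, ADAMTS18, FBN2, HAPLN1, ITGA6 and PTPRZ1. Of 22 transcription factors 4 passed, ID4, NPAS3, SOX6 and TCF7L1, and of 20 neuregulin and guidance genes 0. NRG1 and its receptor ERBB4 were lower than in the other barcodes in each library, at 1186 and 1085 in controls and 938 and 2053 after LPS and at 1658 and 1091 in controls and 1603 and 1342 after LPS. Of 13 genes the study lists for its astroglial clusters, a choice made on these samples and so not independent evidence, 10 passed 4-fold.

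The share of Bergmann nuclei was compared between LPS-exposed and control fetuses. It was 4.87% of barcodes in the Control female (exact 95% interval 4.44 to 5.33), 6.07% in the Control male (5.57 to 6.59), 5.33% in the LPS female (4.81 to 5.89) and 4.70% in the LPS male (4.24 to 5.195). The intervals cover counting error only. The LPS values lay on either side of the Control female, and the Control male was highest. The mean was 5.47% ± 0.844 (SD, n = 2) in controls and 5.02% ± 0.444 (SD, n = 2) after LPS, a log2 difference of -0.12 with a 2-sided exact permutation p of 0.667, where the smallest p that 2 against 2 can give is 0.333. Within females LPS was higher by 0.13 and within males it was lower, at -0.37 on the log2 scale. Thinned to 1000 UMIs per barcode, which left out 389, 780, 165 and 1788 barcodes, the shares were 4.41, 4.74, 4.32 and 4.11% (Control female, Control male, LPS female, LPS male), and the log2 difference was -0.03 in females and -0.21 in males. Both LPS libraries then lay below both controls, at 4.21% ± 0.150 (SD, n = 2) against 4.58% ± 0.237 (SD, n = 2), with a 2-sided exact permutation p of 0.333, the smallest this design allows. As a share of all astroglia the values were 58.7, 75.4, 63.1 and 75.5%, which followed sex, with a log2 difference of 0.054. The groups thus overlapped as counted. At equal UMIs, after a random draw, the 4 values did not overlap between groups, but their exact 95% intervals did. These were 3.99 to 4.86, 4.28 to 5.24, 3.84 to 4.83 and 3.62 to 4.64% (Control female, Control male, LPS female, LPS male). Neither p can pass 0.05 with 2 fetuses per group.

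**Figure D3:**
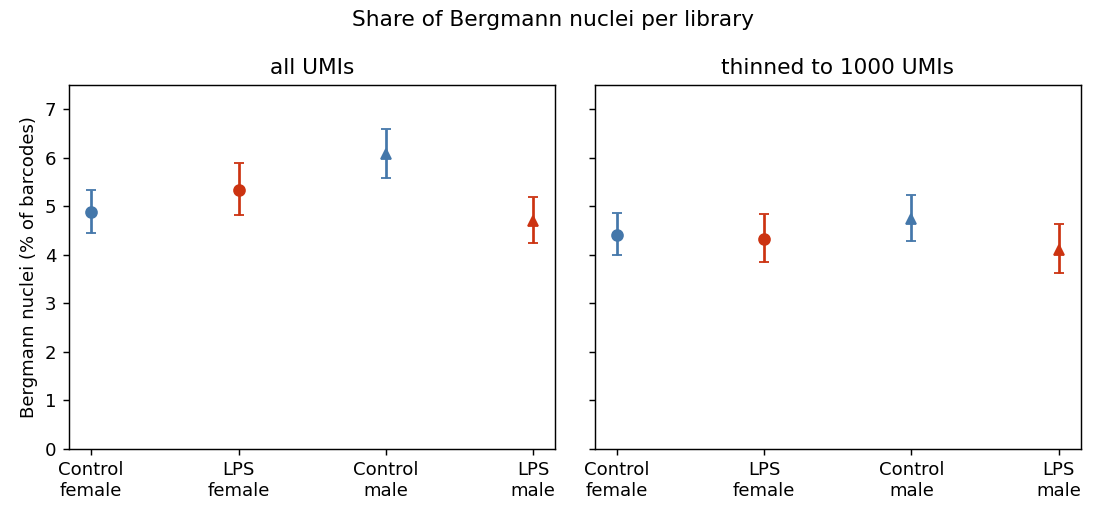
Share of Bergmann nuclei among barcodes with 500 or more genes, as counted and after thinning each barcode to 1000 UMIs. Points are libraries (blue Control, red LPS; circles female, triangles male) and bars exact 95% intervals; at all UMIs the LPS female (5.33%) lay above the Control female (4.87%) and the LPS male (4.70%) below the Control male (6.07%).

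Gene levels of Bergmann nuclei were compared on UMIs summed per fetus, 7388962 in all. No gene of 10866 passed at an adjusted p of 0.1 and an absolute log2 change above 0.25, so 0% of genes were called by edgeR's quasi-likelihood test with Benjamini-Hochberg adjustment. An unadjusted p under 0.05 was reached by 53 genes, and DESeq2 called 0 with 45 at that level. P-values of both fits measure the spread within groups, which takes in the difference between the female and the male library of each. With 2 fetuses per group a count of 0 does not show that no gene differed. With sex as a block edgeR again called 0, with 233 genes at an unadjusted p under 0.05. The common dispersion, edgeR's measure of spread between libraries, was 0.157 without the block and 0.0499 with it. The counts of 53, 45 and 233 genes are each a smaller share of 10866 than the 0.05 that evenly spread p-values would give. Among the 10855 genes outside the rule, 885 (8.15%) had both LPS libraries above both controls and 839 (7.73%) had both below.

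The 10 genes highest after LPS by rank of unadjusted p, with both LPS libraries above both controls, did not pass, each at an adjusted p of 1.00 (edgeR, Benjamini-Hochberg). ADGRV1, a very large adhesion G protein-coupled receptor, was at 85.3 and 91.8 in controls and 196 and 265 after LPS, a log2 difference of 1.38 ± 0.31 (± SE from edgeR, as for all such values below), and of 1.13 within females and 1.56 within males. The groups did not overlap, and free RNA held 77.98 and 164 in controls and 76.98 and 85.5 after LPS. PDZRN4, a PDZ and RING domain protein, was at 86.4 and 96.5 in controls and 168 and 219 after LPS with a log2 difference of 1.08 ± 0.30, and free RNA was at 66.9 to 116. WFDC1, a secreted WAP domain protein, was at 13.4 and 7.37 in controls and 45.9 and 46.5 after LPS (2.09 ± 0.48), and in free RNA at 3.42 and 2.4 in controls and 12.8 and 8.17 after LPS, where it was also higher after LPS. TMEM233 was at 18.5 and 6.03 in controls and 47.5 and 52.1 after LPS (1.93 ± 0.60) and PLCL1, a phospholipase C-like protein that binds GABA-A receptors, at 28.3 and 33.5 in controls and 60.2 and 80.95 after LPS (1.19 ± 0.35). The LPS male was the highest library for each of ADGRV1, PDZRN4, WFDC1, TMEM233 and PLCL1. Among the genes of the next paragraph it was highest in CPM for KCNG4, GABRB2 and SFXN1 but not for PLAAT1. With free RNA subtracted 8 of the 10 genes kept their direction. GABRB2, described below, no longer passed the filter on low counts, nor did it after thinning. Free RNA held PLCL1 at 34.9 and 56.4 in controls and 35.3 and 132 after LPS, with the LPS male highest there too. Thinned to 1000 UMIs the difference of PLCL1 was 0.43. Without the Control female that of TMEM233 was 3.13, and without the Control male it was 1.32. That of WFDC1 was 2.74 without the Control female and 1.68 without the Control male.

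KCNG4, a modifier subunit of potassium channels, was nearly absent from controls, with 0 and 1 UMIs against 17 and 17 in the LPS-exposed fetuses, and 0 in other astroglia of all libraries. It did not pass the filter on low counts without the nuclei of high doublet scores or after thinning. GABRB2, a GABA-A receptor subunit, was at 13.1 and 16.7 in controls and 24.8 and 106 after LPS, and free RNA held 71.8 and 49.2 in controls and 49.7 and 291 after LPS, with the LPS male highest in both. SFXN1, a mitochondrial serine carrier, was at 49.4 and 39.5 in controls and 75.5 and 142 after LPS (1.26 ± 0.41), and PLAAT1, a phospholipase and acyltransferase, at 15.2 and 15.4 in controls and 43.8 and 30.5 after LPS (1.29 ± 0.43). Without the LPS male the difference was 0.80 for GABRB2, against 2.10 ± 0.68 with it, and 0.80 for SFXN1. With 3 or more markers required it was 0.72 for PLAAT1.

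The 10 genes lowest after LPS were all low in level, and none passed at an adjusted p of 1.00 (edgeR, Benjamini-Hochberg). The highest of them was MYOF, myoferlin, a membrane repair protein, at 51.2 and 89.8 in controls and 29.04 and 35.3 after LPS with a log2 difference of -1.10 ± 0.39 and of -0.86 within females and -1.28 within males. RIPOR3 was at 35.2 and 34.8 in controls and 14.3 and 18.4 after LPS (-1.11 ± 0.40) and C7, the complement component, at 17.1 and 44.9 in controls and 10.6 and 8.82 after LPS (-1.60 ± 0.57). C7 in free RNA was at 13.7 and 19.2 in controls and 5.61 and 0.743 after LPS, lower after LPS as well. SLCO2B1, an organic anion transporter, was at 15.97 and 22.1 in controls and 5.81 and 4.01 after LPS (-1.89 ± 0.55) and in free RNA at 19.8 and 25.2 in controls and 8.82 and 7.43 after LPS, also lower, and ST8SIA4, a polysialic acid synthase, at 20.7 and 16.7 in controls and 4.75 and 8.02 after LPS (-1.59 ± 0.55). PPEF1, SERPINI2, SYPL2 and TNFSF13 were at 3.17 to 12.7, 2.64 to 18.8, 1.58 to 13.8 and 3.17 to 15.4 over the 4 libraries. PARP15, an ADP-ribosyltransferase, had 31 and 19 UMIs in the controls and 0 and 3 in the LPS-exposed fetuses. Both groups were apart for each of these 10, which the choice of genes required. The difference of C7 was -0.90 without the Control male, and C7 did not pass the filter on low counts with 3 or more markers required. When nuclei were thinned to 1000 UMIs, MYOF and RIPOR3 alone of the 10 still passed that filter, and the difference of RIPOR3 was -0.49. SYPL2 did not pass it with free RNA subtracted, and the difference of ST8SIA4 was -2.44 with free RNA subtracted.

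**Figure D4:**
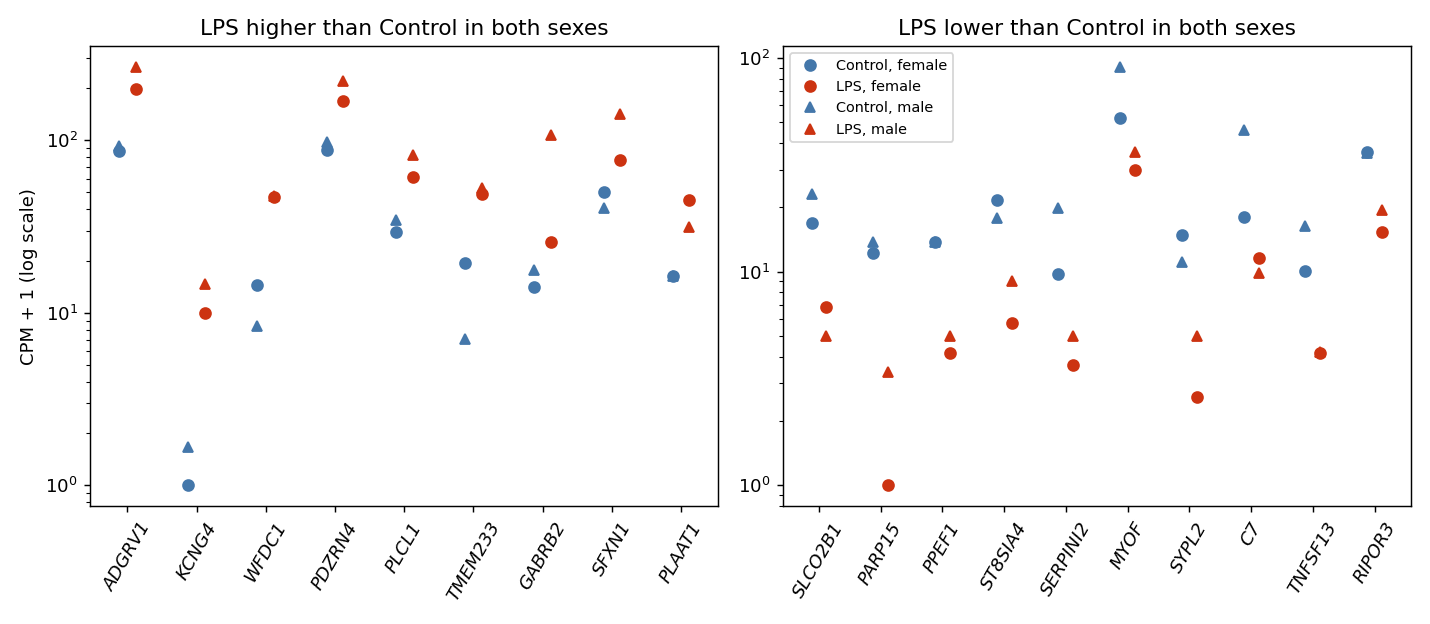
Levels (CPM + 1, log axis) in Bergmann nuclei of 9 of the 10 genes highest and the 10 lowest after LPS by unadjusted p, with both LPS libraries beyond both controls. Points are libraries (blue Control, red LPS; circles female, triangles male); ADGRV1 was at 85.3 to 91.8 in controls and 196 to 265 after LPS and MYOF at 51.2 to 89.8 in controls and 29.04 to 35.3 after LPS, and none passed adjustment.

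Lists of pathway genes gave no called member, and each count is set beside that of all genes, of which 5629 of 10855 had a log2 difference above 0, with a median of 0.01. In the cholesterol and lipid list 16 of 18 genes were above 0, with a median of 0.18. In edgeR 0 of them were at an unadjusted p under 0.05, and 2 with sex as a block, where 53 and 233 of all 10855 genes were. The median was 0.04 within females and 0.34 within males, against -0.01 in both for all genes. Both LPS libraries were above both controls for 6 of the 18, where 8.15% of all genes were, and below them for 0. Among them were enzymes and a regulator of sterol synthesis and a fatty acid elongase. SQLE, squalene epoxidase, was at 48.6 and 39.5 in controls and 63.4 and 59.3 after LPS. HMGCS1, HMG-CoA synthase, was at 18.9 and 24.8 in controls and 27.5 and 30.5 after LPS, and FDFT1, squalene synthase, at 37.8 and 47.6 in controls and 50.7 and 56.9 after LPS. INSIG1, which restrains the pathway, was at 13.8 and 12.7 in controls and 15.8 and 18.4 after LPS and ELOVL2 at 213 and 145 in controls and 278 and 219 after LPS. APOE, the main glial lipoprotein, was at 286 and 40.2 in controls and 478 and 116 after LPS and in free RNA at 1280.5 and 99.6 in controls and 1996 and 380.5 after LPS, higher after LPS within each sex in both. The edgeR difference (± SE) was 0.47 ± 0.37 for SQLE and 0.42 ± 0.39 for HMGCS1, and 0.46 ± 0.38 for ELOVL2. None of these single genes passed the threshold.

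Notch targets were split. HES5, an effector of Notch in radial glia, was at 35.9 and 29.5 in controls and 47.00 and 99.4 after LPS, a log2 difference of 1.12 ± 0.46 with an unadjusted p of 0.0485 and an adjusted p of 1.00 in edgeR with Benjamini-Hochberg adjustment. HES1 was at 100.2 and 103 in controls and 124 and 169 after LPS (0.52 ± 0.31), and HEY1 at 9.44 and 12.7 in controls and 15.8 and 13.6 after LPS. For these 3 of 18 genes both LPS libraries were above both controls, where 8.15% of all genes were. MAML1, a coactivator of Notch, was the 1 gene with both below, at 46.8 and 60.3 in controls and 40.1 and 46.5 after LPS. HEY2 and HES4 went opposite ways in the 2 sexes, with HEY2 at 61.7 and 76.4 in controls and 73.9 and 40.1 after LPS, and the list as a whole had 11 of 18 above 0 and a median of 0.04, which was 0.10 within females and -0.17 within males. In the Sonic hedgehog list 7 of 14 were above 0, with a median of -0.02, which was -0.16 within females and 0.01 within males. PTCH1 differed by -0.05 ± 0.37 and GLI1 by 0.02 ± 0.71, both smaller than their errors.

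**Figure D5:**
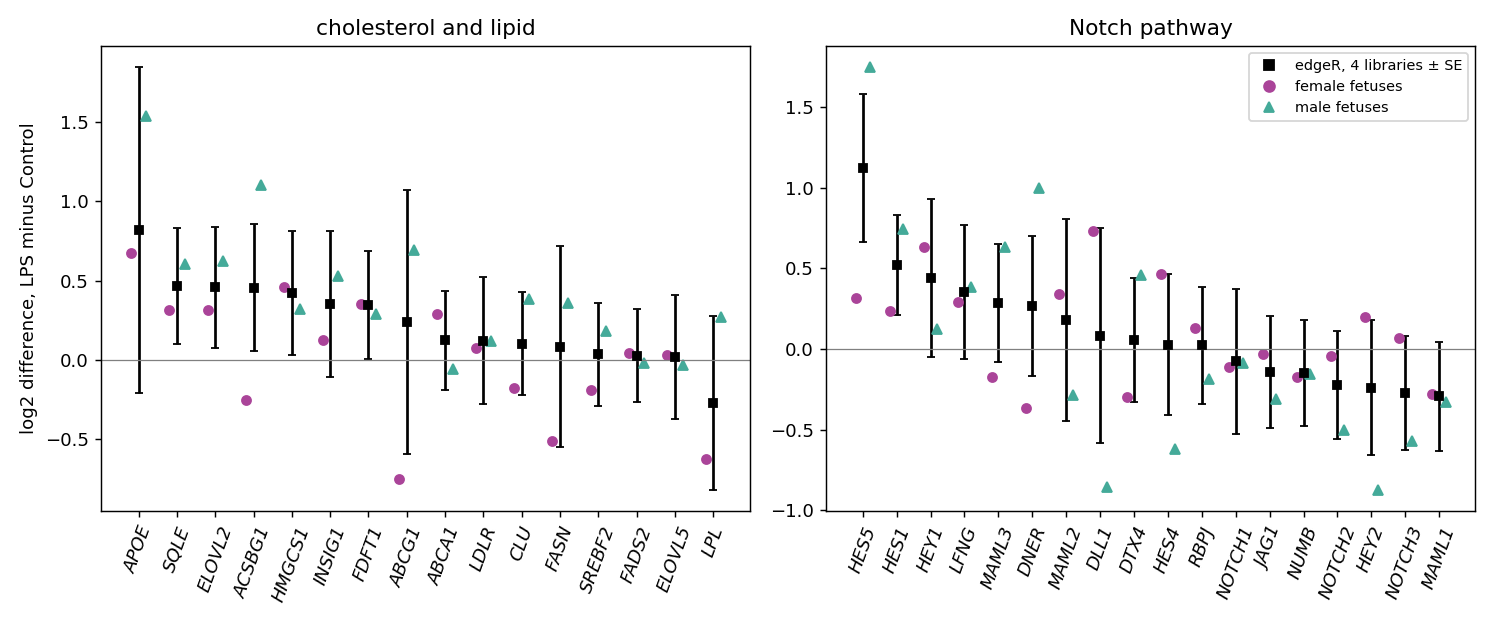
Log2 differences (LPS minus Control) in Bergmann nuclei of genes of the cholesterol and lipid list and the Notch list, ordered by the edgeR value over 4 libraries (squares, bars ± SE), with the difference within females (circles) and within males (triangles). Of the 16 genes plotted on the left 15 lay above 0, HES5 (1.12 ± 0.46) was the highest on the right, and several genes lay on opposite sides of 0 in the 2 sexes.

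Inflammatory and stress genes differed widely in level. Of 42 gliosis and inflammation genes 16 passed the filter on low counts, with a median of -0.21 and 6 above 0. The median was 0.05 within females and -0.49 within males. The genes CCL2, CXCL10, LCN2, SOCS3 and CEBPB had no UMI in Bergmann nuclei of any library. CD44, a hyaluronan receptor of reactive astroglia, was at 65.3 and 54.9 in controls and 76.6 and 137 after LPS (0.80 ± 0.39). NFKBIA, a feedback inhibitor of NF-kappa B, was at 7.26 and 5.36 in controls and 8.98 and 11.2 after LPS and IL1RAP, a subunit of the interleukin-1 receptor, at 10.2 and 6.03 in controls and 13.2 and 15.2 after LPS. VIM, vimentin, was at 94.02 and 50.2 in controls and 144 and 30.5 after LPS and in free RNA at 404 and 56.4 in controls and 692 and 43.1 after LPS, with the same order of libraries in both. STAT3 was at 92.9 and 201 in controls and 78.2 and 136 after LPS. LIFR, the leukaemia inhibitory factor receptor, was 5.63- to 9.16-fold above the other barcodes and at 295 and 374 in controls and 178 and 252 after LPS, lower in both LPS libraries (-0.63 ± 0.32). Of 27 interferon genes 10 passed the filter, with a median of -0.24 and 4 above 0, and medians of -0.04 within females and -0.34 within males. PSMB9, an immunoproteasome subunit, was at 11.3 and 8.71 in controls and 3.7 and 1.6 after LPS, lower in both LPS libraries. Glucocorticoid targets had 4 of 9 above 0 and a median of -0.06, immediate early and stress genes 4 of 8 and 0.06, and S phase genes 4 of 13 and -0.06.

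Some lists had medians of opposite sign in the 2 sexes, each sex being 1 library against 1 with no test. General astroglial genes had a median log2 difference of -0.14 within females and 0.61 within males, glutamate genes -0.27 and 0.44, GABA and glycine genes -0.29 and 0.14, and FGF response genes -0.24 and 0.62. Other lists did not: the genes the study lists for its astroglial clusters had -0.10 and -0.08, and potassium and water genes 0.03 and 0.30. Potassium and water genes had 8 of 13 above 0 and a median of 0.22, matrix and adhesion genes 16 of 29 and 0.09, neuregulin and guidance genes 13 of 19 and 0.16, and transcription factors 12 of 24 and 0.01. ADAMTS18 was at 382 and 307 in controls and 183 and 228 after LPS, lower in both LPS libraries (-0.76 ± 0.33), and FBN2, fibrillin-2, at 371 and 399 in controls and 344 and 147 after LPS. SLC4A4 and PREX2 were higher in CPM in both LPS libraries, with differences of 0.26 ± 0.48 and 0.27 ± 0.39. For PREX2 the normalized difference was -0.02 within females and 0.57 within males. Bergmann and radial glia genes outside the rule had 9 of 12 above 0 and a median of 0.24, which was -0.003 within females and 0.41 within males, and the genes the study lists for its astroglial clusters 7 of 13 and 0.01. In the same nuclei the granule list had 11 of 12 above 0, with a median of -0.40 within females and 0.99 within males. The endothelial and mural list had 0 of 5 above 0 and a median of -0.77, which was -0.29 within females and -0.59 within males. The Purkinje list had 5 of 7 above 0 and a median of 0.15. The part of such genes in the other lists was not tested.

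The LPS difference in Bergmann nuclei was set against that of other astroglia from the same libraries. No gene of 11199 passed in the edgeR interaction test with Benjamini-Hochberg adjustment, 398 had an unadjusted p under 0.05, and DESeq2 called 0, with 54 at that level. Other astroglia alone had 0 of 8412 genes called, with 57 under 0.05. PDZRN4 had the lowest adjusted p of the genes named above, 0.299, with 547 and 507 in controls and 484 and 615 after LPS in other astroglia and a difference between the populations of 1.05 ± 0.21. ADGRV1 was at 29.4 and 95.7 in controls and 37.6 and 73.8 after LPS in other astroglia, and the differences were 1.38 ± 0.31 in Bergmann nuclei and -0.13 ± 0.60 in other astroglia, with an interaction of 1.35 ± 0.41 and an adjusted p of 1.00 in edgeR. For HES1 the differences were 0.52 ± 0.31 and -0.14 ± 0.45, and for SQLE 0.47 ± 0.37 and 0.04 ± 0.48, with interactions of 0.59 ± 0.32 and 0.41 ± 0.33, neither of which passed the threshold. Some genes named for LPS moved the same way outside Bergmann nuclei. TMEM233 was at 1.92 and 2.04 in controls and 6.63 and 8.20 after LPS in other astroglia, with an interaction of -0.12 ± 0.66. The difference in other astroglia was 0.59 ± 0.38 for SFXN1, -0.54 ± 0.42 for MYOF and -1.35 ± 1.005 for RIPOR3. PLCL1 in all other barcodes was at 39.8 and 49.3 in controls and 69.1 and 123 after LPS. Leaving out a library changed the count of the interaction test to between 19 and 169 genes, with 169 called without the LPS female.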

How the data were processed

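Nuclei of 4 fetal rhesus cerebella were sequenced with the 10x Chromium 3′ v3.1 kit. The authors mapped reads to Mmul_8.0.1 with introns included; the sources used here name Cell Ranger 5.0 in the protocol text and version 4 in the submitters' processing notes. The deposited values are UMI counts per gene and barcode for all barcodes, with no normalization, filter or ambient RNA removal by the authors. Gene symbols are those deposited, and 412 of 441 listed genes were matched, 11 of them by identifier (FABP7, NCAN, HEPACAM and SOX10 were among those not matched).

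Barcodes with 500 or more genes were kept, with no mitochondrial filter (at most 5% was an alternative). Members, gene lists and tests were chosen with earlier results of these data known. Counts of the members were summed per library. LPS was compared with Control with edgeR 4.0.16 in R 4.3.3 (quasi-likelihood test, filterByExpr, TMM, Benjamini-Hochberg over all genes), and a gene was called where the adjusted p was under 0.1 and the log2 change beyond 0.25 in either direction. DESeq2 1.42.0 was an alternative. The interaction used library as a block. Shares used a 2-sided exact permutation test of log2 values and Clopper-Pearson intervals of 95%. The folds within a library used a pseudocount of 1 CPM and genes that reached 10 CPM. Doublet scores came from Scrublet in scanpy 1.11.5, with the highest scores marked up to 0.8% per 1000 barcodes. Free RNA was profiled in barcodes of at most 100 UMIs, and its share was the 0.25 quantile of ratios of other cell classes' markers. The tests were tested on simulated data with 200 changed genes.

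Named were the 14 genes of the rule, the 15 genes with the largest smallest-over-libraries ratio to other barcodes and at least 50 CPM, the 10 genes per direction of lowest unadjusted p between LPS and Control (since none was called) with 10 or more counts in each library or in both of the higher group and both LPS libraries beyond both controls, and for each list those with the highest levels or 4-fold higher. Other genes were named after their values were seen, and values of some genes are not reported here. The precision of every value is limited by 2 fetuses per group, and by 1247626 to 2754772 UMIs of Bergmann nuclei per library. Replicate numbers are not in the labels, so libraries were named by sex.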

Additional observations from a re-analysis of the deposited data

Results flagged for a closer look

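Some values went opposite ways in the female and the male fetuses, each sex holding 1 Control and 1 LPS library, and this difference between the sexes was not tested. The share of Bergmann nuclei had a log2 ratio of LPS to Control of 0.13 in females and -0.37 in males, and of -0.03 and -0.21, the same sign, when each barcode was thinned to 1000 UMIs. In the median log2 difference of Bergmann nuclei, general astroglial genes were at -0.14 in females and 0.61 in males, glutamate uptake and receptor genes at -0.27 and 0.44, GABA and glycine genes at -0.29 and 0.14, FGF response genes at -0.24 and 0.62, and S phase genes at 0.19 and -0.27. Over all 10855 genes, 52.7% had opposite signs in the sexes. The median of the granule lineage list in the same nuclei was -0.40 in females and 0.99 in males, and its part in these values was not tested.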

How the results depend on the processing

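The share of Bergmann nuclei was -0.12 on the log2 scale (LPS minus Control). It stayed between -0.10 and -0.18 with 1000 or more genes, at most 5% mitochondrial UMIs, thinning, 3 or more markers or no high doublet scores, turned to 0.054 as a share of astroglia, and lay between -0.28 and 0.039 when each library was left out, the last without the Control male. The count of genes called between LPS and Control in edgeR was 0 in the reported fit, with 53 genes at an unadjusted p under 0.05. It was also 0 with DESeq2, RLE normalization, sex as a block, 3 or more markers, 1000 or more genes, no high doublet scores, free RNA subtracted or thinning, with between 39 and 233 genes at that p, and it rose to 13 without the filter on low counts. It was 0 to 4 when each library was left out. Without the Control male KCNH5 and USP9Y were called, and without the LPS male ATP13A5, SEMA3D, RPAP1 and TTR, where KCNH5 was at 357 and 44.9 in controls and 54.9 and 45.7 after LPS and RPAP1 at 24.3 and 36.2 in controls and 249 and 27.3 after LPS, and USP9Y is a gene of the Y chromosome. The interaction called 0 genes in the reported fit, with DESeq2, RLE normalization, 3 or more markers or no high doublet scores, and 40 without the filter. When each library was left out it called 19 to 169 (19 without the Control female, 29 without the Control male, 35 without the LPS male and 169 without the LPS female). A lone library of a group is assumed in these fits to vary like the others, and the cause was not tested. The 158 genes 4-fold above other barcodes became 21 at 8-fold, 24 against other astroglia, 189 with 3 or more markers and 317 with free RNA subtracted, and 167 to 201 when each library was left out, where fewer libraries have to pass. Of 245 alternative values of the 20 genes chosen for LPS, 2 (KCNG4 and GABRB2 without the filter) passed the threshold. That 0 reversed is no sign of stability, since the genes were chosen for groups that did not overlap and had adjusted p near 1 in edgeR. The median of all genes moved from 0.01 to 0.02 under RLE. The labels carry no replicate numbers, and the paired fit was the one with sex as a block, which called 0 genes.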
